A study of Mus musculus with 12 samples.

Results

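A set of 10 mouse genes of Wnt feedback and hair follicle stem cells, Lef1, Axin2, Nkd1, Nkd2, Wif1, Dkk3, Lgr5, Lgr6, Lrig1 and Sox9, was followed by name through every library. All 10 were listed, among 23235 gene symbols. RNA was measured by polyA sequencing in 12 libraries from FVB/NJ mice, 3 in each of 4 groups. The groups were papillomas given 20% camphor white oil (CWO, an essential oil of the camphor tree) for 6 weeks, papillomas given the acetone vehicle for 6 weeks, epidermis taken 24 h after 400 µL of 20% CWO, and epidermis taken 24 h after acetone vehicle. Papillomas are benign, pre-malignant skin tumours, and both tumour groups carried the same induction: shaving at 6 to 7 weeks of age, 400 nmol of the carcinogen DMBA, then 10 nmol of the tumour promoter TPA 2 times a week. For the tumour groups a check for telogen, the resting phase of the hair follicle, at 2 days is also given, and none is given for the epidermis groups. Each papilloma library pooled 4 tumours of 1 mouse, with 3 mice per treatment. Epidermis came from mice shaved 1 week earlier and was freed from the dermis in 3.8% ammonium thiocyanate for 40 min. From 5 mice per treatment, 3 samples were taken on to sequencing by their RNA integrity. The labels give no age for the mice of the epidermis groups and do not say that each epidermis library is a separate mouse, so p-values there measure the spread between these samples.

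In canonical Wnt signalling a Wnt ligand at the cell surface stops the destruction of beta-catenin, which then enters the nucleus and switches on target genes together with TCF and LEF factors such as Lef1. Several targets act back on the pathway: Axin2 rebuilds the destruction complex, Nkd1 and Nkd2 bind Dishevelled, and Wif1 and the Dickkopf proteins act outside the cell. In resting skin the pathway is known for waking follicle stem cells, which are marked by Lgr5 and Sox9 in the bulge and by Lgr6 and Lrig1 in the isthmus and upper follicle. Wnt signalling is strong again in the hair matrix of a growing follicle.

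Promoter windows of 250 bases upstream of the start were compared for 7 of the 10 genes, taken from RefSeq on GRCm38.p6, and those of the feedback genes that the results turn on and of Lef1 and Wif1 are shown. Capitals mark the letters CTTTG or, on the other strand, CAAAG, the core of the TCF and LEF motif.
Nkd2, chr13:73847632-73847881, minus strand: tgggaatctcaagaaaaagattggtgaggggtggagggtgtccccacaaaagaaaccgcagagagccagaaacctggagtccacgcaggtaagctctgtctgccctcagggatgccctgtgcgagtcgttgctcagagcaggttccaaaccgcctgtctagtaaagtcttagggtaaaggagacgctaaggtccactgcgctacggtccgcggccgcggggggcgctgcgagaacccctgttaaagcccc
Axin2, chr11:108920099-108920348, plus strand: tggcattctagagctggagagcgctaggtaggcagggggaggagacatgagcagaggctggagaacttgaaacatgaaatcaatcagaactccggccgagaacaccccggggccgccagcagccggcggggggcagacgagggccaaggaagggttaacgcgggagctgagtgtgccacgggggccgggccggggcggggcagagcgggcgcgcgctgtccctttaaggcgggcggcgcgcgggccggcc
Lef1, chr3:131110073-131110322, plus strand: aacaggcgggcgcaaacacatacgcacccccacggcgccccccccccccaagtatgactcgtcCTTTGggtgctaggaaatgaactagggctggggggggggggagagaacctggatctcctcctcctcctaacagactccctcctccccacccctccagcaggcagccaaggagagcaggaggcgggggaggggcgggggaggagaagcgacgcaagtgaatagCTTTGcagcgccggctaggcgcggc
Wif1, chr10:121033754-121034003, plus strand: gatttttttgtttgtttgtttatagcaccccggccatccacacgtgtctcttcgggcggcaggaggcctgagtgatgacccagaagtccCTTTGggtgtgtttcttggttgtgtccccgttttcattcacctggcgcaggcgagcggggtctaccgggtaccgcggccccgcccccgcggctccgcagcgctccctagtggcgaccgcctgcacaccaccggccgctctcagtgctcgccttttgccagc
The Nkd2 and Axin2 windows hold no such core, the Wif1 window holds 1, and this Lef1 window holds 2. The 5 letters occur in 48.6% of the 32851 promoters of the same length. A longer motif of 7 letters (the core CTTTG followed by a pair of letters that are each A or T, either strand) occurs in 14.8% of them. Of the 10 windows listed for these genes, that longer motif was found in 1, at an internal start of Lef1. A window without these letters says nothing of sites elsewhere in the gene.

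Libraries held 11.1 to 24.6 M (mega) recovered fragments, and 11838 to 12452 genes per library reached 1 FPKM (fragments scaled to transcript length and library size). The basal keratinocyte keratin Krt5 was high in every library, from 2580 to 4138 FPKM. Epidermis vehicle libraries 1 and 2 stood apart by skeletal muscle genes, whose 14 members summed to 12090 and 19170 FPKM, against 3239 to 4182 FPKM in epidermis with CWO and 3902 FPKM in epidermis vehicle library 3. Hair matrix, inner root sheath and shaft genes were uneven within every group: the 21 members summed to 117, 506 and 655 FPKM in papillomas with CWO and to 177, 911 and 657 FPKM in papillomas with vehicle. They summed to 96.4, 801 and 35.5 FPKM in epidermis with CWO, and to 57.8, 35.6 and 511 FPKM in epidermis with vehicle.

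**Figure D1:**
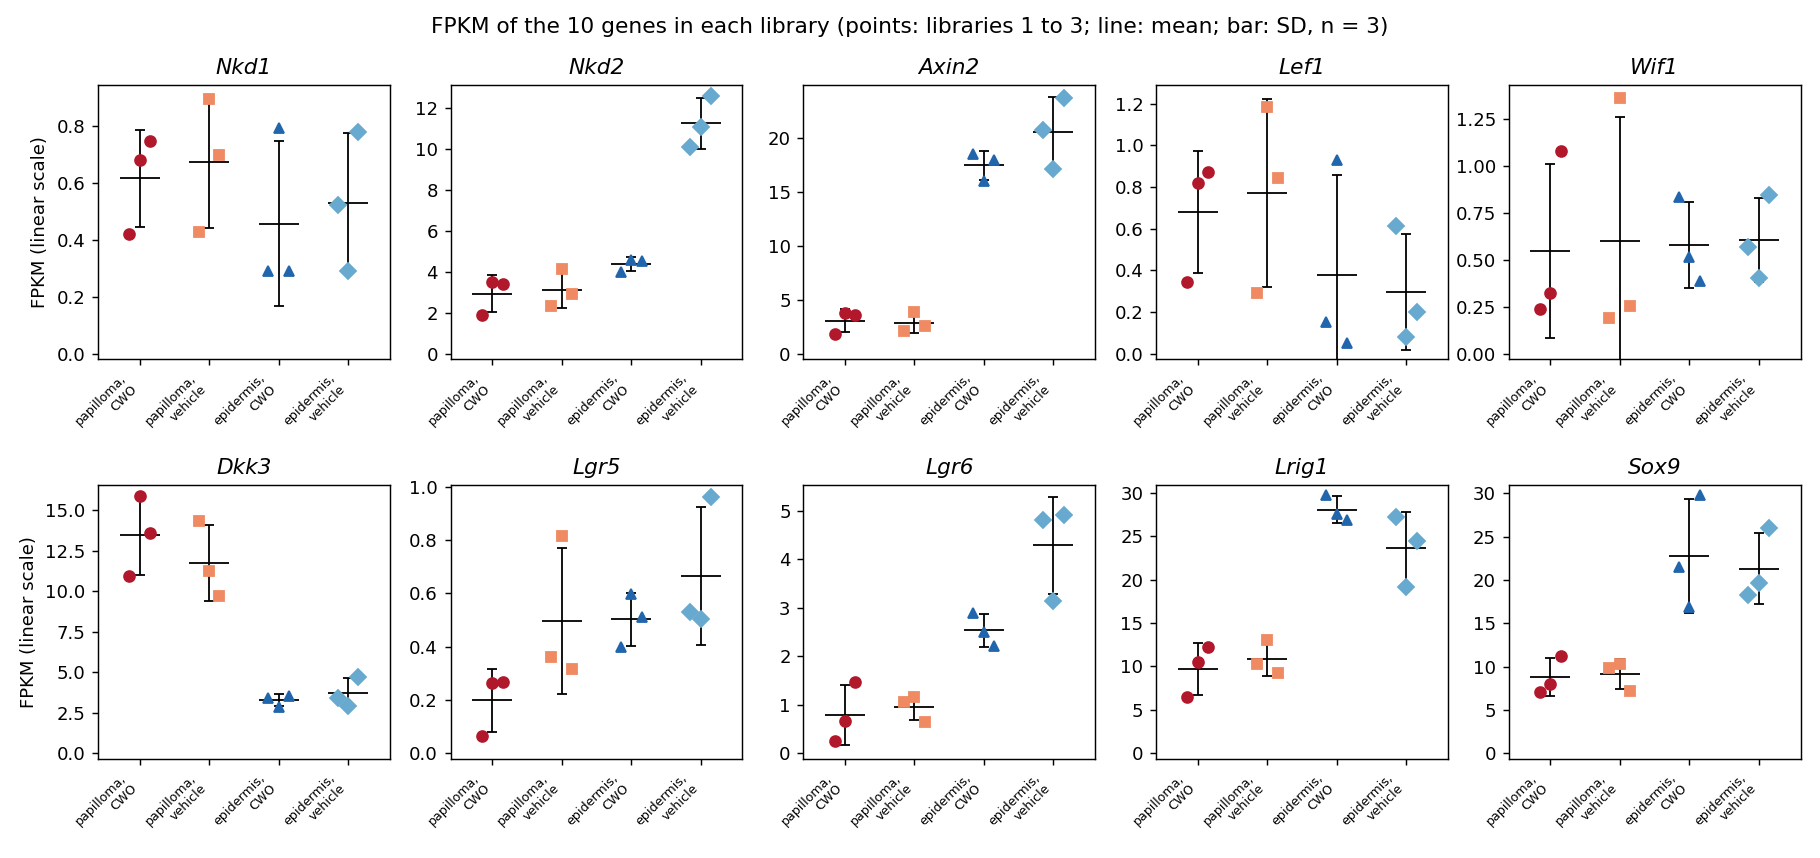
FPKM (linear y axis) of each of the 10 genes in each library, by group (x axis); points are libraries 1 to 3, the horizontal line is the mean and the bar is the SD (n = 3), drawn down to 0 at most. Nkd2 in epidermis with CWO lies at 4.00 to 4.59 FPKM, below the 10.1 to 12.6 FPKM of epidermis with vehicle, and Axin2, Lgr6, Lrig1 and Sox9 are lower, and Dkk3 higher, in papilloma than in epidermis.

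The first comparison asked what a single CWO application did to these genes in epidermis. Nkd2 was the 1 member called: its mean FPKM fell to 0.389 of the vehicle mean. Its intracellular partner in feedback Axin2, the secreted Dkk3, and the stem cell genes Lgr6, Lrig1 and Sox9 did not pass the test. The test was limma on log2(FPKM + 1) across all genes with a Benjamini-Hochberg adjusted p under 0.05. In epidermis 6 of the 10 genes passed the filter on low values (at least 1 FPKM in 3 of the libraries fitted), and 1 of these 6 was called, lower, where 1.99% of 12290 genes were called and 0.179% were called lower. The 10 genes were chosen with earlier results of these data known, so 1 of 6 is no result about the set. The median log2 difference was -0.17 over the 6 and 0.02 over all genes tested. These folds understate changes of low genes, since 1 is added to each FPKM.

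Nkd2 encodes naked cuticle homolog 2, which binds Dishevelled and dampens its signal (mm9, chr13:73956775-73985079, the promoter shown above). It had 4.00, 4.59 and 4.55 FPKM in epidermis with CWO, against 10.1, 11.1 and 12.6 FPKM in epidermis with vehicle. The lowest vehicle library was above every CWO library. The log2 difference was -1.19 (SE 0.131, limma adjusted p = 0.00674). In the authors' deposited table, on normalised counts, Nkd2 averaged 224.5 with CWO and 577.8 with vehicle, a log2 change of -1.36 with an adjusted p of 6.02e-09. Without the muscle-rich vehicle libraries 1 and 2, which leaves 1 vehicle library assumed to vary like the others, the log2 difference was -1.34 and the limma adjusted p 0.0829.

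Axin2, the scaffold of the destruction complex and the most widely used Wnt reporter gene, had 18.5, 16.0 and 17.9 FPKM with CWO and 20.7, 17.1 and 23.7 FPKM with vehicle. The groups overlap, and the log2 difference was -0.21 (SE 0.139, limma adjusted p = 0.571). A difference between the changes of Nkd2 and Axin2 was not tested. Dkk3, a divergent Dickkopf family member, had 3.44, 2.85 and 3.53 FPKM with CWO and 3.43, 2.94 and 4.73 FPKM with vehicle (log2 difference -0.12, limma adjusted p = 0.831).

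Lgr6, an R-spondin receptor of the isthmus stem cell, had 2.89, 2.50 and 2.20 FPKM with CWO, against 4.81, 3.14 and 4.90 FPKM with vehicle. Every CWO library was below every vehicle library, as held for 6.67% of 12266 genes that passed the filter and had a value in every epidermis library. The log2 difference of -0.57 (SE 0.176) did not pass, with a limma adjusted p of 0.180. Lrig1, an inhibitor of ErbB receptors that keeps upper follicle stem cells quiet, had 29.8, 27.6 and 26.8 FPKM with CWO and 27.2, 19.1 and 24.5 FPKM with vehicle. Sox9, a transcription factor of the bulge and outer root sheath, had 21.5, 16.9 and 29.8 FPKM with CWO and 18.3, 19.7 and 26.0 FPKM with vehicle. Both overlapped between treatments, with log2 differences of 0.25 for Lrig1 and 0.07 for Sox9 (limma adjusted p = 0.480 and 0.931).

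The other 4 genes lay below 1 FPKM in every epidermis library, on 2 to 106 recovered fragments, and were compared by an exact permutation test over libraries, two-sided, which cannot go below 0.1 for 3 against 3. Nkd1, the homolog of Nkd2, had 0.290, 0.791 and 0.289 FPKM with CWO and 0.520, 0.289 and 0.777 FPKM with vehicle. Lef1 had 0.150, 0.931 and 0.050 FPKM with CWO and 0.612, 0.081 and 0.200 FPKM with vehicle. The secreted Wnt-binding inhibitor Wif1 had 0.831, 0.515 and 0.387 FPKM with CWO and 0.570, 0.402 and 0.845 FPKM with vehicle. The bulge stem cell receptor Lgr5 had 0.400, 0.599 and 0.511 FPKM with CWO and 0.530, 0.504 and 0.963 FPKM with vehicle. All 4 overlapped between treatments, with exact permutation p of 0.9 for Nkd1, 0.9 for Lef1, 0.7 for Wif1 and 0.5 for Lgr5.

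Around these genes, Wnt2, a ligand gene, rose with CWO in epidermis. It had 4.82, 4.16 and 3.65 FPKM with CWO, against 1.29, 1.86 and 1.59 FPKM with vehicle. The log2 difference was 1.01 (SE 0.152, limma adjusted p = 0.0172), and in the authors' deposited table it was 1.34. The call was lost without CWO library 1 (limma adjusted p = 0.107), CWO library 2 (0.0633), vehicle library 1 (0.0788) or vehicle libraries 1 and 2 (0.207), and without the filter on low values (0.0750). It was 1 of 15 genes tested for Wnt ligands and their secretion, of which the other 14 did not pass. None of 16 receptor, co-receptor and R-spondin genes, 5 other inhibitors, 12 destruction complex and Dishevelled genes, 11 TCF factors and co-factors or 10 other target genes passed. The inhibitor Apcdd1 averaged 30.9 FPKM with CWO and 38.1 FPKM with vehicle (limma adjusted p = 0.250), and the target gene Ascl2 averaged 13.3 FPKM with CWO and 18.5 FPKM with vehicle (limma adjusted p = 0.196).

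Summed levels of some other cell types' markers also stood apart between the treatments in epidermis. The 12 fibroblast and dermal matrix genes summed to 30.5 to 43.4 FPKM with CWO and to 46.8 to 126 FPKM with vehicle, and 2 of the 10 tested, Col1a1 and Col1a2, fell. The 12 dermal papilla genes summed to 5.21 to 7.15 FPKM with CWO and to 9.35 to 10.6 FPKM with vehicle, with Sox2 at 0 in all vehicle libraries, and none of the 4 tested passed. The 14 bulge, isthmus and outer root sheath genes with a value in every library summed to 2931 to 3374 FPKM with CWO and to 3556 to 4022 FPKM with vehicle. The 14 genes tested in epidermis held Krt75 in place of Gli1, and none of them passed. Among these the bulge keratin Krt15 had 1641, 1202 and 2064 FPKM with CWO, against 2343, 2466 and 2500 FPKM with vehicle, and did not pass (log2 difference -0.61, limma adjusted p = 0.209). The 12 sebaceous genes summed to 3400 to 3858 FPKM with CWO and to 2696 to 2966 FPKM with vehicle, with the lipid enzyme gene Elovl3 higher (log2 difference 1.78, limma adjusted p = 0.00759) and the desaturase gene Scd3 lower (-1.95, limma adjusted p = 0.00752). None of the 5 melanocyte, 3 endothelial, 6 adipocyte or 7 leukocyte genes tested passed. All 7 proliferation genes rose, with a median log2 difference of 1.43, where 223 of 12290 genes tested were called higher. The part of these cells in the Nkd2 difference was not tested. In these bulk samples fewer cells of a type and less RNA per cell cannot be told apart.

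In papillomas, where CWO was given for 6 weeks, none of the 6 members that passed the filter was called, and the other 4 had only the exact permutation test, which cannot pass at 3 against 3. The 0 of 6 stood beside 0 of all 12145 genes tested (0.0% called by limma); at an unadjusted p under 0.05 there were 306 genes (2.52%) and 0 of the 6 members, and limma-voom on recovered fragments called 0 genes. The median log2 difference was -0.07 over the 6 and -0.01 over all genes tested.

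Nkd2 had 1.90, 3.50 and 3.39 FPKM in papillomas with CWO and 2.33, 4.11 and 2.91 FPKM in papillomas with vehicle. Axin2 had 1.8, 3.74 and 3.61 FPKM with CWO and 2.06, 3.82 and 2.55 FPKM with vehicle. For both genes library 1 was the lowest of its treatment, and the treatments overlapped (log2 differences -0.07, SE 0.219, and 0.07, SE 0.245). Dkk3 had 10.9, 15.8 and 13.6 FPKM with CWO and 14.3, 11.2 and 9.68 FPKM with vehicle. Lgr6 had 0.253, 0.660 and 1.47 FPKM with CWO and 1.07, 1.16 and 0.645 FPKM with vehicle. Lrig1 had 6.45, 10.5 and 12.2 FPKM with CWO and 10.3, 13.1 and 9.29 FPKM with vehicle. These stem cell and inhibitor genes overlapped between treatments too, with the lowest Lgr6 and Lrig1 values in CWO library 1. Sox9 had 7.06, 8.03 and 11.2 FPKM with CWO and 9.88, 10.3 and 7.14 FPKM with vehicle. For these 6 genes every limma adjusted p was 0.9999.

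Lgr5 was the 1 member whose papilloma groups did not overlap. It had 0.064, 0.263 and 0.269 FPKM with CWO, against 0.361, 0.814 and 0.318 FPKM with vehicle, on 6 to 21 recovered fragments with CWO and 25 to 73 with vehicle. The exact permutation p was 0.1, the smallest possible. Of 12129 genes that passed the filter on low values and had a value in every papilloma library, 3.56% did not overlap in this direction. Lgr5 lay below that filter, so this share is not that of genes at its level. In the authors' deposited table the log2 change of Lgr5 was -1.33 with p = 0.0309 and an adjusted p of 1.0. Nkd1 had 0.421, 0.679 and 0.746 FPKM with CWO and 0.428, 0.892 and 0.699 FPKM with vehicle. Lef1 had 0.342, 0.818 and 0.873 FPKM with CWO and 0.289, 1.18 and 0.843 FPKM with vehicle. Wif1 had 0.236, 0.321 and 1.08 FPKM with CWO and 0.192, 1.36 and 0.252 FPKM with vehicle. These 3 overlapped between treatments, with exact permutation p of 0.7 for Nkd1 and 0.9 for Lef1 and Wif1. No pathway list held a called gene, and the ligand gene Wnt16 was the nearest, at 1.55 FPKM with CWO and 3.10 FPKM with vehicle (log2 difference -0.64, limma adjusted p = 0.9999).

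Whether CWO acted differently in the 2 tissues was tested as the difference of its effects, papilloma minus epidermis, in a fit of all 12 libraries. None of the 6 members passed by limma, where 0.743% of 13187 genes did; Nkd2 was the 1 member with an unadjusted p under 0.05, as were 9.9% of all genes. The difference for Nkd2 was 1.11 on the log2 scale (SE 0.266, limma adjusted p = 0.0890). With a pseudocount of 3, with quantile normalization and without papilloma CWO library 1 it passed (limma adjusted p = 0.0448, 0.0394 and 0.0333). Wnt2 had a difference of -0.87 (SE 0.212, limma adjusted p = 0.0950). Tissue and treatment differ here in time and dosing, since epidermis had 1 application and papillomas 6 weeks of them.

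**Figure D2:**
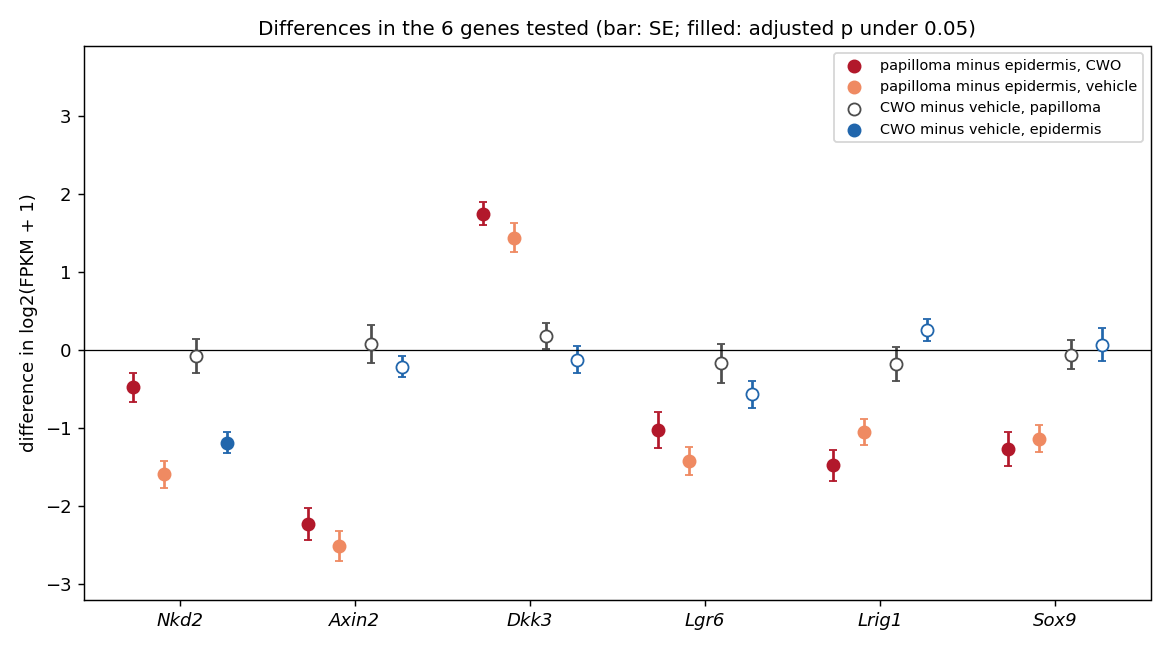
Difference in log2(FPKM + 1) (y axis) for the 6 genes that passed the filter (x axis) in 4 comparisons; points are limma estimates, bars are the SE, and filled points had an adjusted p under 0.05. All 6 genes differ between papilloma and epidermis under both treatments, Dkk3 alone upward, and for CWO against vehicle the single filled point is Nkd2 in epidermis, at -1.19.

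Between tissues, papillomas held less Axin2, Nkd2, Lgr6, Lrig1 and Sox9 RNA than epidermis and more Dkk3. Under CWO all 6 members that passed the filter were called, 5 lower and 1 higher, where 68.8% of 12692 genes were called (39.7% lower, 29.1% higher). Under vehicle the same 6 were called in the same directions, where 70.2% of 12791 genes were called (38.3% lower, 31.8% higher). With backgrounds of this size the count of members called is no result about them. The median log2 difference of the 6 was -1.15 under CWO and -1.28 under vehicle, against -0.12 and -0.07 over all genes tested. The filter takes in a gene that is high in 1 tissue only, as with Lgr6 in epidermis. Among the members it left out, Nkd1 and Lef1 had higher means in papilloma under both treatments, and Wif1 and Lgr5 lower ones. The median is therefore no result about the set either. Papilloma and epidermis differed in treatment schedule, carcinogen exposure and dissection, which cannot be told apart from the tissue. The comparison under CWO and that under vehicle share no libraries, but the comparison under vehicle shares its epidermis libraries with the CWO comparison in epidermis.

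Axin2 had the largest difference of the 6. It averaged 3.05 ± 1.08 FPKM in papilloma and 17.5 ± 1.34 FPKM in epidermis under CWO (SD, n = 3 each), a log2 difference of -2.23 (SE 0.203, limma adjusted p = 2.44e-05). Under vehicle it averaged 2.81 ± 0.908 FPKM in papilloma and 20.5 ± 3.29 FPKM in epidermis (SD, n = 3 each), a log2 difference of -2.51 (SE 0.191, limma adjusted p = 1.04e-05). No papilloma library passed 3.82 FPKM and no epidermis library was under 16.0 FPKM. Nkd2 averaged 2.93 ± 0.898 FPKM in papilloma and 4.38 ± 0.328 FPKM in epidermis under CWO (SD, n = 3 each), and 3.12 ± 0.910 FPKM in papilloma and 11.3 ± 1.25 FPKM in epidermis under vehicle. Its log2 difference was -0.48 (SE 0.181, limma adjusted p = 0.0423) under CWO and -1.59 (SE 0.173, limma adjusted p = 7.21e-05) under vehicle. The call under CWO was lost with a pseudocount of 0.1 (limma adjusted p = 0.0520), without the filter (0.0807), with median-ratio scaling (0.0652) and without papilloma CWO library 1 (log2 difference -0.27, limma adjusted p = 0.109). It was lost too without CWO library 1, 2 or 3 of epidermis (limma adjusted p = 0.0684, 0.0922 and 0.0978).

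Lgr6, Lrig1 and Sox9 were lower in papilloma under both treatments. Lgr6 averaged 0.795 ± 0.620 FPKM in papilloma and 2.53 ± 0.343 FPKM in epidermis under CWO, and 0.958 ± 0.275 FPKM in papilloma and 4.28 ± 0.994 FPKM in epidermis under vehicle (SD, n = 3 each). Its log2 differences were -1.03 under CWO and -1.42 under vehicle (SE 0.230 and 0.182). Lrig1 fell by 1.48 under CWO and by 1.05 under vehicle on the log2 scale (limma adjusted p = 0.000219 and 0.000556). Sox9 fell by 1.27 under CWO and by 1.14 under vehicle on the log2 scale (limma adjusted p = 0.00105 and 0.000477). For all 3 genes every papilloma library was below every epidermis library, as held for 42.6% of 12669 genes under CWO and 40.7% of 12770 under vehicle. Dkk3 went the other way: it averaged 13.5 ± 2.45 FPKM in papilloma and 3.27 ± 0.368 FPKM in epidermis under CWO (SD, n = 3 each), a log2 difference of 1.75 (SE 0.150, limma adjusted p = 1.77e-05). Under vehicle it averaged 11.7 ± 2.36 FPKM in papilloma and 3.70 ± 0.926 FPKM in epidermis (SD, n = 3 each), a log2 difference of 1.44 (SE 0.185, limma adjusted p = 0.000185).

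For the low genes the exact test could not pass. Nkd1, Lef1 and Wif1 overlapped between papilloma and epidermis under both treatments, with exact permutation p of 0.2 to 0.9. Lgr5 averaged 0.199 FPKM in papilloma and 0.504 FPKM in epidermis under CWO without overlap (exact permutation p = 0.1, the smallest possible), and 0.498 FPKM in papilloma and 0.666 FPKM in epidermis under vehicle with overlap (exact permutation p = 0.5). Fitted without the filter on low values, the Lgr5 difference under CWO had a limma adjusted p of 0.0173, in a fit that called 10240 genes. Under vehicle the same kind of fit called 10233 genes and gave Lgr5 a limma adjusted p of 0.443. In papillomas with CWO Lgr5 rested on 6 to 21 recovered fragments.

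Across the 4 groups Nkd2 stood in the order epidermis with vehicle, epidermis with CWO, papilloma with vehicle, papilloma with CWO, and of these neighbours epidermis with CWO and papilloma with vehicle overlapped, as did both papilloma groups. Axin2, Lrig1, Sox9 and Dkk3 had overlapping levels within a tissue and none between tissues. Lgr6 separated both epidermis treatments from each other and from papilloma. Summed levels of most cell type lists did not overlap between the tissues. This held for sebaceous, fibroblast, endothelial, skeletal muscle, leukocyte, adipocyte, dermal papilla, proliferation, and bulge, isthmus and outer root sheath genes. The higher adipocyte sum in papilloma was almost all Fabp4, at 4267 to 5207 FPKM there. The median log2 difference of the adipocyte genes tested went the other way, at -2.42 under CWO and -1.93 under vehicle. The dermal papilla sum in papilloma was mostly Crabp1, at 34.15 to 72.95 FPKM. Hair, keratinocyte and melanocyte genes overlapped. An overlapping sum does not mean alike levels, since single keratinocyte genes went both ways. Under vehicle Krt14 averaged 15780 FPKM in papilloma and 2882 FPKM in epidermis, and Lor 1745 FPKM in papilloma and 7442 FPKM in epidermis. The 14 skeletal muscle genes summed to at most 426 FPKM in papilloma and at least 3239 FPKM in epidermis. The 12 sebaceous genes summed to 172 to 261 FPKM in papilloma and 3400 to 3858 FPKM in epidermis under CWO, and to 173 to 446 FPKM in papilloma and 2696 to 2966 FPKM in epidermis under vehicle. The 12 fibroblast genes summed to 458 to 691 FPKM in papilloma and 30.5 to 43.4 FPKM in epidermis under CWO, and to 422 to 616 FPKM in papilloma and 46.8 to 126 FPKM in epidermis under vehicle. The 7 endothelial genes summed to 28.6 to 40.2 FPKM in papilloma and 4.70 to 9.64 FPKM in epidermis under CWO, and to 30.9 to 37.8 FPKM in papilloma and 3.77 to 15.5 FPKM in epidermis under vehicle. The part of any of these cell types in the tissue differences was not tested.

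The other genes of the pathway were counted against the same shares over all genes, 68.8% called under CWO and 70.2% under vehicle, and with shares of this size the counts are no result about the pathway. Of the ligand and secretion genes 3 were higher and 7 lower of 14 tested under CWO, and 3 higher and 8 lower of 15 under vehicle, near the share over all genes. Wnt3, a ligand of the epidermis, had 4.95, 5.74 and 4.89 FPKM in papilloma with CWO, against 59.8, 62.5 and 54.6 FPKM in epidermis with CWO (log2 difference -3.28, limma adjusted p = 1.82e-07). Wnt7b averaged 7.95 FPKM in papilloma and 52.0 FPKM in epidermis under CWO, and 7.95 FPKM in papilloma and 59.6 FPKM in epidermis under vehicle. Wnt5a, a ligand that mostly signals without beta-catenin, was on the other side, at 36.1 FPKM in papilloma and 4.96 FPKM in epidermis under CWO, and 38.7 FPKM in papilloma and 4.72 FPKM in epidermis under vehicle (log2 differences 2.62 and 2.80).

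Receptor, co-receptor and R-spondin genes were 2 higher and 9 lower of 15 tested under CWO, and 1 higher and 11 lower of 16 under vehicle, where 68.8% of all genes were called under CWO and 70.2% under vehicle. Kremen1, a co-receptor of the Dickkopf proteins, averaged 19.4 FPKM in papilloma and 43.0 FPKM in epidermis under CWO (log2 difference -1.12, limma adjusted p = 4.03e-05). Of the other secreted and membrane inhibitors 1 was higher and 3 lower of 6 under CWO, and 1 higher and 2 lower of 7 under vehicle, Sfrp2 being the higher one. Apcdd1 averaged 15.7 FPKM in papilloma and 30.9 FPKM in epidermis under CWO, and 14.4 FPKM in papilloma and 38.1 FPKM in epidermis under vehicle. Destruction complex and Dishevelled genes were 6 higher and 2 lower of 12 under either treatment, with Csnk1a1, a kinase that primes beta-catenin for destruction, at 334 FPKM in papilloma and 192 FPKM in epidermis under CWO. TCF factors and co-factors were 1 higher and 4 lower of 10 under CWO, and 1 higher and 5 lower of 11 under vehicle, and Ctnnbip1, which keeps beta-catenin from TCF factors, averaged 20.9 FPKM in papilloma and 63.5 FPKM in epidermis under CWO.

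Of the other target genes, 6 were higher and 5 lower of 13 under CWO, and 7 higher and 3 lower of 14 under vehicle. The cyclin gene Ccnd1 averaged 185 FPKM in papilloma and 36.1 FPKM in epidermis under CWO (log2 difference 2.34), and the adhesion receptor Cd44 averaged 138 FPKM in papilloma and 47.1 FPKM in epidermis under CWO (log2 difference 1.53). Tnfrsf19 averaged 6.51 FPKM in papilloma and 54.5 FPKM in epidermis under CWO (log2 difference -2.89, limma adjusted p = 2.66e-07), and Ascl2 averaged 1.58 FPKM in papilloma and 18.5 FPKM in epidermis under vehicle (log2 difference -2.91, limma adjusted p = 6.33e-07). The bulge keratin Krt15 averaged 23.1 FPKM in papilloma and 1636 FPKM in epidermis under CWO, and 51.1 FPKM in papilloma and 2437 FPKM in epidermis under vehicle. Its bulge, isthmus and outer root sheath list was 2 higher and 7 lower of 13 tested under either treatment. Over all genes 68.8% were called under CWO (39.7% lower) and 70.2% under vehicle (38.3% lower), so this count is no result about the list.

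**Figure D3:**
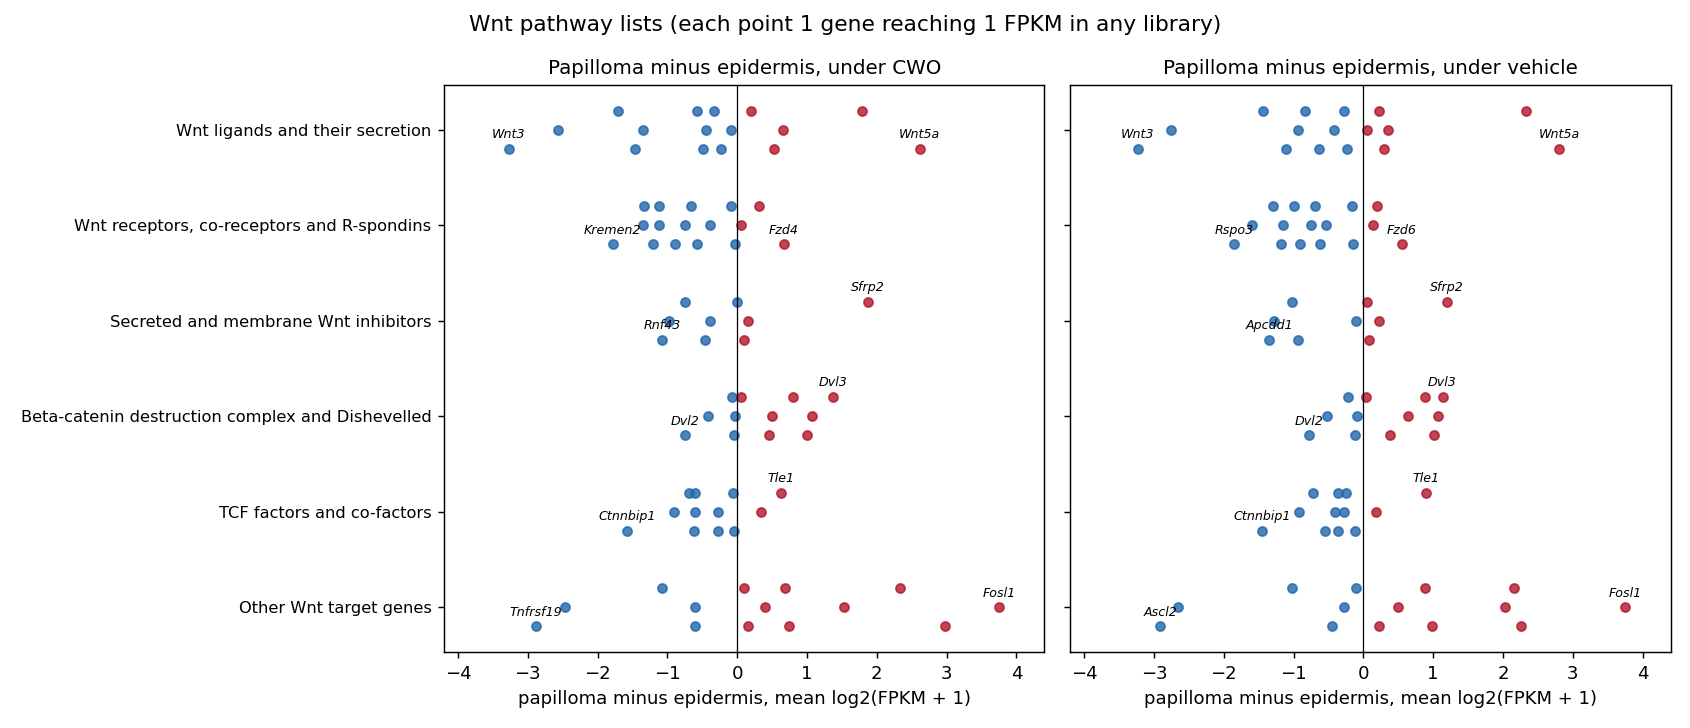
Papilloma minus epidermis difference in mean log2(FPKM + 1) (x axis) for the genes of 6 Wnt pathway lists (y axis), under CWO (left) and under vehicle (right); each point is 1 gene that reached 1 FPKM in any library, red above 0 and blue below, and the outermost gene on each side is named. Wnt3 and Tnfrsf19 lie far to the left and Wnt5a far to the right, so that ligands and targets are spread to both sides of 0.

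Within papillomas Nkd1, a low feedback gene on 24 to 70 recovered fragments per library, varied with the hair genes. Whether many genes outside this set varied with them as closely was not tested. The mean log2(FPKM + 1) of the 21 hair matrix, inner root sheath and shaft genes was 2.17, 3.65 and 3.92 in papillomas with CWO and 2.59, 4.31 and 3.89 in papillomas with vehicle. Library 1 of each treatment was lowest on this mean and lowest in Nkd1, Lef1, Axin2 and Nkd2, so that the split did not follow the treatment. These libraries were also lowest of their treatment in summed fibroblast genes (458 FPKM with CWO, 422 FPKM with vehicle). The same was true of summed endothelial, skeletal muscle, and bulge, isthmus and outer root sheath genes. It did not hold in both treatments for the remaining cell type lists. Nkd1 stood in the same order as the hair mean in all 6 papilloma libraries (Pearson r = 0.98, exact permutation p = 0.00139, 0.0278 after adjustment over the 20 relations of 10 genes in 2 tissues; Spearman rho = 1.0, exact permutation p = 0.00278, adjusted 0.0556). Without both libraries numbered 1, the farthest from the median, r was 0.963 for Nkd1. For Lef1 r was 0.97 (exact permutation p = 0.00972, adjusted 0.0648; rho = 0.943, exact permutation p = 0.0167, adjusted 0.167) and 0.945 without them. For Nkd2 and Axin2 r was 0.944 and 0.88 (exact permutation p = 0.00694 and 0.0208, adjusted 0.0648 and 0.0833; rho = 0.829 for both, exact permutation p = 0.0583, adjusted 0.167), and it was 0.61 and 0.197 without them, so that both relations rest on those 2 libraries. Among the other members r was 0.796 for Lrig1, 0.7 for Wif1, 0.677 for Lgr5 and 0.584 for Lgr6 (rho = 0.829, 0.886, 0.6 and 0.714). It was 0.391 for Sox9 and -0.079 for Dkk3 (rho = 0.714 and -0.086). By the exact permutation test their adjusted Pearson p was 0.162 to 0.851. The 6 libraries hold both treatments, and 3 libraries of 1 treatment are too few for a value within it.

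The same relations were computed in epidermis, and a difference between the tissues was not tested. For Wif1, Dkk3, Lgr5, Lgr6, Lrig1 and Sox9, r lay between -0.286 and 0.584 (exact permutation adjusted p = 0.432 to 0.851). The hair mean was 1.96, 3.98 and 0.895 with CWO and 1.53, 0.809 and 3.33 with vehicle. Nkd1 was highest in the 2 libraries richest in hair genes, CWO library 2 at 0.791 FPKM and vehicle library 3 at 0.777 FPKM (r = 0.894, exact permutation p = 0.0194, adjusted 0.0833; rho = 0.886, exact permutation p = 0.0333, adjusted 0.167), but r was 0.286 without them, so that the relation rests on these 2. For Lef1 r was 0.644 (exact permutation p = 0.146, adjusted 0.324; rho = 0.771, exact permutation p = 0.103, adjusted 0.257) and 0.449 without them. For Axin2 r was 0.115 (exact permutation p = 0.826, adjusted 0.851; rho = 0.086, exact permutation p = 0.919, adjusted 1.0) and 0.587 without them. For Nkd2 r was -0.079 (exact permutation p = 0.813, adjusted 0.851; rho = -0.029, exact permutation p = 1.0, adjusted 1.0) and -0.384 without them.

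**Figure D4:**
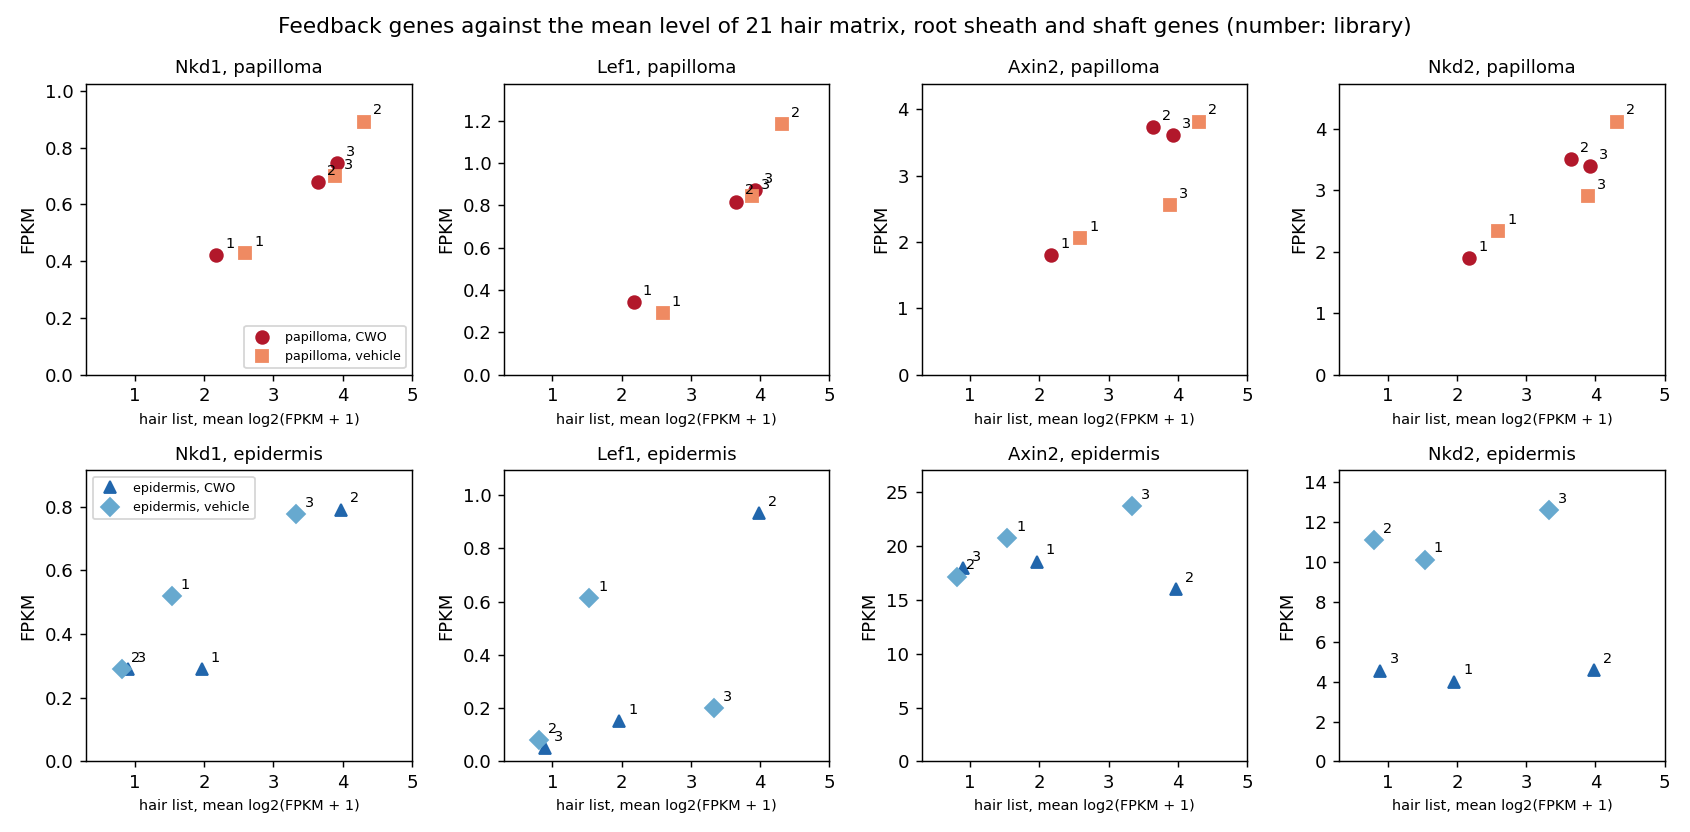
FPKM (linear y axis) of Nkd1, Lef1, Axin2 and Nkd2 against the mean log2(FPKM + 1) of 21 hair matrix, root sheath and shaft genes (x axis), papillomas in the top row and epidermis in the bottom row; each point is 1 library with its number, marked by treatment. In papillomas both libraries numbered 1 are at the lower left for every gene, and in epidermis the 3 CWO points of Nkd2 lie below the 3 vehicle points.

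For each of the 6 members above the filter, the 2 genes with the most like profile over the 12 libraries were sought among 13151 genes, by the root mean square difference of log2(FPKM + 1) centred on each gene's mean. Nkd2 was nearest to Kcns1 (0.223) and Rasl11a (0.249). Kcns1, a potassium channel subunit gene, had 1.19, 0.880 and 0.897 FPKM in epidermis with CWO, against 2.28, 2.03 and 2.71 FPKM in epidermis with vehicle. Rasl11a, a small GTPase gene, had 1.48, 1.92 and 2.88 FPKM in epidermis with CWO, against 6.16, 4.85 and 7.19 FPKM in epidermis with vehicle. Both show the treatment step of Nkd2 in epidermis and low levels in papillomas, for which they were chosen. Axin2 was nearest to Tfap2b (0.167) and Slc46a3 (0.172). Dkk3 was nearest to Dkc1 (0.146) and Camsap2 (0.154). Lgr6 was nearest to Apol9a (0.178) and Isg15 (0.188), the second an interferon-induced gene. Lrig1 was nearest to Npdc1 (0.124) and to Lfng (0.131), a glycosyltransferase gene of Notch signalling, and Sox9 to Fam164a (0.149) and Zfp422 (0.153).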

How the data were processed

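The authors made reads with bcl2fastq 1.8.4, aligned them to mm9 with TopHat2 2.0.4 and quantified genes with Cufflinks 2.0.2, per the submitters' processing notes. Each library has a deposited list of FPKM by gene, with the Cufflinks interval. The authors' comparison tables give a signal (mean normalised count) per group, its ratio (fold), the log2 ratio and p-values, per the file headers; 176 genes, none with an adjusted p above 0.00544, are listed for epidermis and 23284 for papilloma. Their DESeq version is not given in the sources used here.

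The 10 genes and all lists were chosen with earlier results of these data known. FPKM without an OK Cufflinks status were treated as missing, 248 symbols with more than 1 row were summed, and 736 short non-coding symbols were left out. Fragments were recovered from FPKM and its interval, taken as 2 standard deviations of a count, and 68.0% to 69.2% of values under 500 fragments came out whole within 0.02. Replicates of a group differed by more than sampling noise (chi-square per degree of freedom 22.5 to 70.2). limma 3.58.1 (R 4.3.3, intensity trend) was fitted to log2(FPKM + 1), two-sided. Genes below the filter had an exact permutation test. Alternatives were other pseudocounts, filters, scalings, variance models, replicate blocks and left-out libraries. From each list up to 3 genes of smallest p per comparison could be named, whether or not they passed. Gene positions are mm9, promoters GRCm38.p6.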

Additional observations from a re-analysis of the deposited data

Results flagged for a closer look

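By limma's test of the difference of the CWO effects, papilloma minus epidermis, 3 of 7 proliferation genes passed, where 0.743% of 13187 genes did. The log2 difference was -1.27 for Ccna2, -1.33 for Aurkb and -1.47 for Birc5: in papillomas they did not pass, and in epidermis they rose with CWO. No member gene met this mark, Nkd2 being nearest at 1.11.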

How the results depend on the processing

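Nkd2 in epidermis kept its call in 17 of 18 alternatives (log2 -1.40 to -0.95; leave-one-out -1.25 to -1.11) and was lost, leaving 0 members called, without vehicle libraries 1 and 2. The 6 members called between tissues under vehicle stayed called in every alternative, and under CWO Nkd2 lost its call in 7 of 17. The difference of CWO effects called 1 member, Nkd2, with a pseudocount of 3, with quantile normalization and without papilloma CWO library 1 (leave-one-out range 0 to 1). Genes called in epidermis, 245, were 43 without a filter, 162 by limma-voom, 665 with all 12 libraries fitted, 12 without vehicle libraries 1 and 2, and 64 to 682 with 1 library left out; without vehicle library 3, 54.1% of calls were higher, against 91.0%. Genes called in papilloma, 0, were 1 with all 12 libraries fitted. Genes called for the difference, 98, were 63 without a filter, 49 by limma-voom, 17 without vehicle libraries 1 and 2, and 34 to 328 with 1 library left out. The labels number the libraries without stating a pairing. Same-numbered correlations of deviations were -0.444 to 0.0207 in epidermis and 0.0231 to 0.278 in papilloma. Those of unlike numbers were -0.156 to 0.441 in epidermis and -0.374 to 0.279 in papilloma. With so few pairs, these values do not settle whether the numbers pair samples in papilloma. The replicate block gave 54 genes called in epidermis, 4 in papilloma and 25 for the difference; Nkd2 kept its call, and Wnt2 lost it (limma adjusted p = 0.0952). Uncalled values turned sign with 1 library left out: in epidermis Dkk3 (-0.24 to 0.0295) and Sox9 (-0.14 to 0.26), in papilloma Nkd2 (-0.21 to 0.13), Axin2 (-0.0711 to 0.32), Lgr6 (-0.29 to 0.0593), Lrig1 (-0.35 to 0.0626) and Sox9 (-0.23 to 0.0704), and for the difference Sox9 (-0.31 to 0.0786). Without vehicle libraries 1 and 2, Sox9 was -0.22 in epidermis and 0.16 for the difference. The causes were not tested. Quantile normalization moved the median of all genes between tissues under CWO by 0.13 (log2), to 0.02, and median-ratio scaling by 0.10. Nkd1, Lef1, Wif1 and Lgr5 rested on 2 to 106 fragments, and their exact test cannot go below 0.1.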
